A study of Drosophila melanogaster with 2 samples.

Results

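The peaks described here are Mad-eGFP binding regions at one-direction promoters, that is, promoters with no second protein-coding gene starting close by in the opposite direction. A peak was a member when its summit lay within 500 bp of a protein-coding transcription start site (TSS) and the nearest TSS had no protein-coding TSS on the opposite strand within 500 bp upstream. Of 3590 peaks kept by the authors' reproducibility threshold, 1330 were members (37.0%, 95% Wilson interval 35.5 to 38.6%). They made up 63.6% (61.6 to 65.7%) of the 2090 peaks at promoters, and the other 760 promoter peaks lay at divergent promoters, where such a start lies within that distance. The signal of a peak had no part in the choice beyond the authors' own threshold.

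Chromatin was immunoprecipitated with an antibody to GFP from whole Drosophila melanogaster embryos, aged 0 to 24 h and of both sexes, in 2 biological replicates of a single group. Both came from the same transgenic line, which stably carries Mad with GFP at its C terminus, and no untagged or mutant embryos were analysed here. The labels do not say which promoter drives the fusion. The embryos were whole and of mixed ages, so binding in more cells and stronger binding per cell cannot be told apart. All positions are in build dm6, and negative distances lie upstream of the TSS on the gene's own strand. Signal is the value the authors' peak caller gave each peak, and the sources used here give neither its formula nor the read depth. Intervals cover counting error over peaks or genes, which are not replicates of the experiment.

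Mad is the fly Smad protein that receptors for bone morphogenetic proteins (BMPs), chiefly Dpp, phosphorylate. It then joins the partner Smad Medea, enters the nucleus and binds GC-rich sites and GTCTG-type Smad boxes. In the embryo this pathway patterns the dorsal ectoderm and the dorsal mesoderm. Many fly promoters carry other short elements that recruit promoter proteins. DREF binds TATCGATA, M1BP binds GGTCACACT near the start sites of housekeeping genes, BEAF-32 is an insulator protein with the core CGATA, and GAGA factor, the product of Trl, binds runs such as GAGAGAG.

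The sequences below show these elements beside one-direction summits. For each element, the strongest peaks on 2L, 3L, 3R, 4 and X were taken whose printed window overlaps no annotated exon. Each is given 5′ to 3′ on the strand of the gene, from the release 6 genome, with the element in capitals and 30 bases on each side. The first pair carries the DREF site, the second the M1BP site, the third the GAGA site and the last the activating element, a site known to be bound by Mad and Medea that starts with the core GGCGCC.

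eEF1gamma (chr3R:29220101-29220168, + strand): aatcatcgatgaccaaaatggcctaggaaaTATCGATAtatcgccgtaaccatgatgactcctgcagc
Jwa (chr2L:18705870-18705937, - strand): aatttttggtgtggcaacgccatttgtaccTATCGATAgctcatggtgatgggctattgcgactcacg
CG43163 (chr3L:8507231-8507299, - strand): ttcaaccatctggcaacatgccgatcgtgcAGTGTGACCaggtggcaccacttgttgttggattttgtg
Dpm3 (chr3R:13403216-13403284, - strand): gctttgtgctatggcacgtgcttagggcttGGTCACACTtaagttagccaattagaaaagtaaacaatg
gish (chr3R:16280806-16280872, + strand): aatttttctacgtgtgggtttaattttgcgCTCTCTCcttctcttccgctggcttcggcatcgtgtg
CG11151 (chrX:13739626-13739692, + strand): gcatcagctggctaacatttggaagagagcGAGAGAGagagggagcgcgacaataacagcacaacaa
Mer (chrX:19693293-19693366, - strand): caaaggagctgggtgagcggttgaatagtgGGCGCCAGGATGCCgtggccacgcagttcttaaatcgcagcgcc
CG17746 (chr3L:3239602-3239675, - strand): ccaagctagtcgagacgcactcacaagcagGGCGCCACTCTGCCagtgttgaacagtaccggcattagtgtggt

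At eEF1gamma, which encodes a translation elongation factor subunit, the summit lay 28 bp upstream of the TSS and its signal was 311, with 142 in replicate 1 and 169 in replicate 2. At Jwa the summit lay 127 bp upstream, with a signal of 266 and replicate values of 127 and 142. The M1BP pair was weaker. CG43163 had a signal of 152, with 67.2 in replicate 1 and 85.1 in replicate 2, and Dpm3, which encodes a subunit of dolichol-phosphate mannose synthase, had 140, with 73.4 and 65.2. The M1BP site of CG43163 reads on the opposite strand and that of Dpm3 on the gene's strand. The GAGA pair was the strongest of the printed sets. gish, which encodes a casein kinase I, had a signal of 549, with 223 in replicate 1 and 328 in replicate 2, from a summit 145 bp upstream. CG11151 had 307, with 147 and 159, from a summit 179 bp upstream. At Mer, which encodes the fly merlin, the summit lay 116 bp downstream of the TSS in an intron of the gene, with a signal of 177 and replicate values of 75.3 and 97.8. At CG17746 it lay 38 bp upstream, with a signal of 96.9 and replicate values of 43.7 and 55.0. In all of these peaks but Dpm3, replicate 2 was the higher one, beside 74.9% of the one-direction peaks found in both replicates.

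Summits at one-direction promoters lay mainly just upstream of the TSS. Of the 1330 summits, 1111 (83.5%, interval 81.4 to 85.4%) were upstream, and the median position was 96.5 bp upstream, with quartiles at 207 and 27 bp upstream. The other 219 summits were downstream, with a median of 69 bp. The downstream summits had a median signal of 89.3 and the upstream ones of 110. In replicate 1 these medians were 44.0 and 51.7, and in replicate 2 they were 51.0 and 61.6, so the upstream group was the higher one in each list. Within 50 bp of the TSS lay 324 summits (24.4%), and 350 (26.3%, 24.0 to 28.7%) were over 200 bp upstream. At divergent promoters 79.9% were upstream, with a median of 55 bp. There the position of the second TSS bounds how far upstream a summit can lie and still have the first as its nearest, so the distances of the classes were not compared. The same bound limits the share upstream at divergent promoters, and its part in the differences that follow was not tested. The share upstream was 3.67 points higher at one-direction promoters (95% Newcombe interval 0.254 to 7.21). This interval no longer excluded 0 in the strongest peaks of either replicate alone, at 1.33 and 1.34 points. It also included 0 with a promoter distance of 250 bp, at 2.73 points, and with opposite TSSs sought to 1000 bp, at 2.53 points. The difference was 17.9 points (12.8 to 23.4) with opposite TSSs sought to 250 bp only, where the bound is tighter. In the 1000 strongest peaks it was 7.79 points (2.12 to 13.8).

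**Figure D1:**
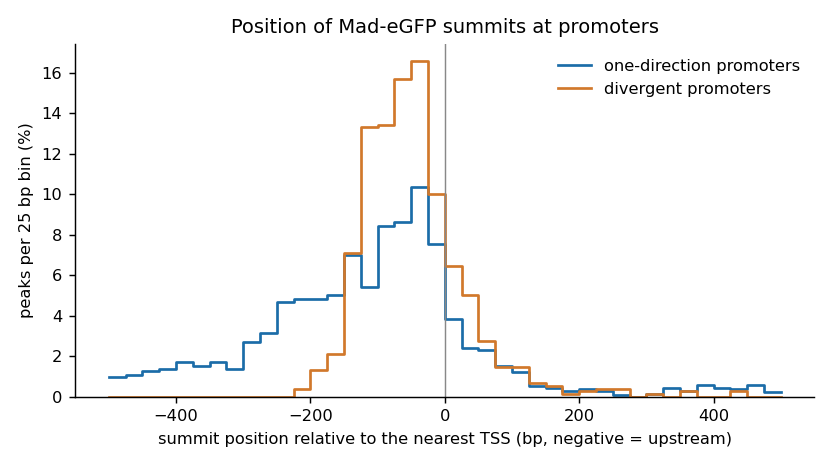
Share of summits (%) per 25 bp bin by position relative to the nearest TSS (bp, negative is upstream), for the 1330 peaks at one-direction and the 760 at divergent promoters. One-direction summits were spread from just upstream of the TSS out to the 500 bp limit, with 26.3% of them over 200 bp upstream.

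Stronger peaks at one-direction promoters had their summits farther upstream. With the peaks ordered by signal into 4 groups of equal size, the median moved from 67 bp upstream in the weakest group through 78 and 94 bp to 145 bp in the strongest. The share over 200 bp upstream was 21.1%, 23.7%, 25.3% and 35.1% in the same order. The strongest group was thus 14.1 points above the weakest (95% Newcombe interval 7.23 to 20.7). The strongest group was also above the weakest in each replicate alone. In the strongest peaks of replicate 1 the difference was 16.1 points (9.43 to 22.5), and in those of replicate 2 it was 13.6 points (6.99 to 20.1). In replicate 2 the 2 weakest groups were level, at 20.5% and 20.2%. The difference was 10.7 points (3.04 to 18.3) among peaks whose nearest TSS was the outermost start of its gene, and 18.7 points (5.43 to 31.1) among peaks at internal starts. The share upstream at any distance went from 74.7% in the weakest group to 82.6%, 88.3% and 88.6%. At divergent promoters the medians also moved, from 36 bp upstream through 56.5 and 58 bp to 72.5 bp, with 69.5% upstream in the weakest and 82.1% in the strongest group. Whether the classes differ in this was not tested.

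**Figure D2:**
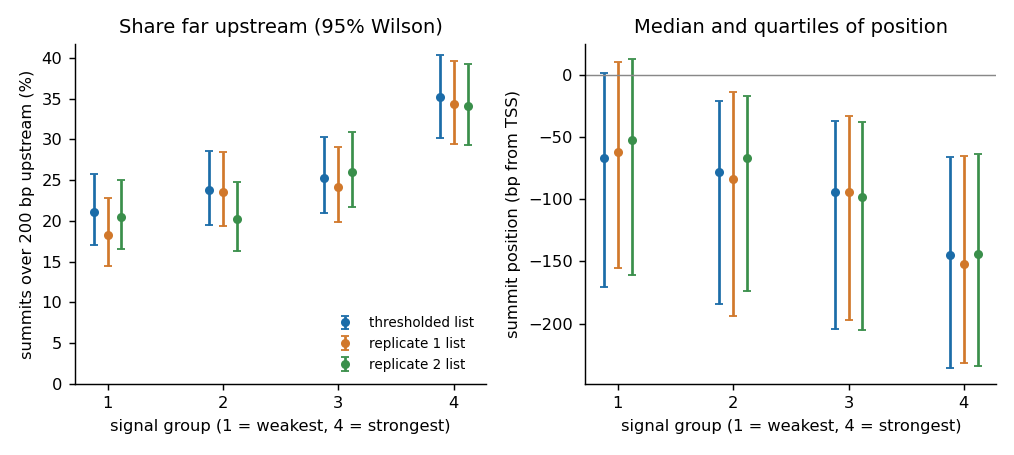
Left, share of one-direction summits over 200 bp upstream of the TSS (%, bars are 95% Wilson intervals); right, median position (bp from the TSS, bars are quartiles); both by signal group from the weakest (1) to the strongest (4), in the thresholded list and in the strongest peaks of each replicate. The share was 21.1% in the weakest and 35.1% in the strongest group of the thresholded list, and the replicate lists lie close to it.

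The surroundings of the TSS differed within the set. The nearest TSS was the outermost start of its gene for 932 peaks (70.1%) and an internal alternative start for 398 (29.9%, 27.5 to 32.4%). Peaks at internal starts had a median signal of 111 against 104, and medians of 54.2 against 49.3 in replicate 1 and of 62.9 against 59.1 in replicate 2, all small beside the quartiles of the set. Their median position was 133 bp upstream against 88 bp. Between genes lay 684 summits (51.4%), in an intron of the gene itself 295 (22.2%), in exons outside coding sequence 285 (21.4%), in an intron of another gene 56 (4.21%) and in coding sequence 10 (0.752%). The summits in the gene's own introns had the highest median signal of these places, 115, with 58.3 in replicate 1 and 66.8 in replicate 2, and those in coding sequence the lowest, 81.8. A noncoding TSS faced away within 500 bp upstream for 36 peaks of the set (2.71%), which the rule did not use. The next protein-coding TSS on the other strand upstream was at most 1000 bp away for 189 peaks and more than 10000 bp away for 453, with median signals of 107 and 102.

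Most promoters held a single peak. The 1330 peaks fell on 1288 promoters, of which 42 held 2 peaks and 0 held 3. The paired summits lay 200 to 745 bp apart, with a median of 203 bp, so most pairs sat at nearly the smallest spacing seen. The 2 pairs with the strongest higher peak, named here after their values were seen, were at E23, with signals of 420 and 135 and 205 bp between the summits, and at papi, with 406 and 167 and 202 bp.

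Signals at one-direction promoters had a median of 106 in the thresholded list, with quartiles of 82.9 and 153. The lowest was 70.5, at the authors' threshold, and the highest was 1447. Replicate 1 had a median of 50.3 (quartiles 38.2 and 72.5) and replicate 2 of 60.0 (46.0 and 88.4). Replicate 2 was the higher one at 993 of the 1326 peaks found in both (74.9%), with a median log2 ratio of 0.28 (SD 0.46 over peaks). The medians at divergent promoters were 118, 57.6 and 64.9 in the same order of lists, so their quartile ranges overlapped widely with those of the one-direction set. Among the 3590 strongest peaks of each replicate list, both replicates held 989 of the 1330 members (74.4%, 71.9 to 76.6%). For divergent promoters this was 610 of 760 (80.3%), and the difference was -5.90 points (95% Newcombe interval -9.51 to -2.15). Both classes had already passed the threshold on reproducibility, so these shares do not test agreement between the replicates. The part of the higher divergent signals in the difference was not tested. Replicate 1 alone held 145 members among its strongest, replicate 2 alone 178 and neither 18. The threshold kept 1330 of the 6668 one-direction peaks in the pooled list of 30000 (19.9%), against 36.3% at divergent promoters (difference -16.3 points, interval -18.6 to -14.1) and 7.06% of peaks away from promoters.

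**Figure D3:**
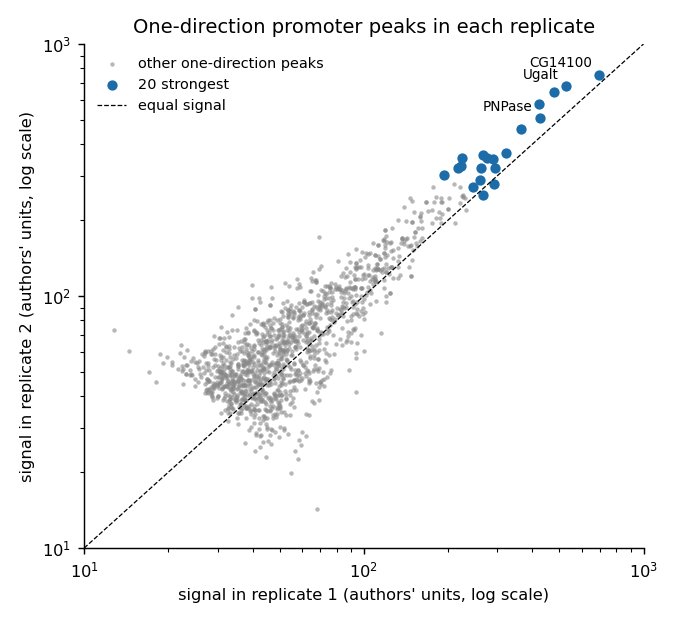
Signal of each one-direction promoter peak in replicate 1 and replicate 2 (authors' units, both axes log scale); filled points are the 20 strongest peaks and the dashed line marks equal signal. Most points lie above the line, with replicate 2 higher at 993 of 1326 peaks, as at 18 of the 20 strongest.

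The 20 strongest one-direction peaks had signals from 494 to 1447, and 19 of their summits were upstream of the TSS. The strongest was at CG14100 (chr3L:19590445-19590811), with 693 in replicate 1 and 757 in replicate 2, between genes. Ugalt, which encodes a UDP-galactose transporter, followed with 1205 in the thresholded list, 529 in replicate 1 and 680 in replicate 2, from a summit 37 bp upstream. At px, a gene of wing vein patterning, the signal was 1121, with 479 and 646 in the replicates. At ph-p, which encodes a Polycomb group protein, it was 994, with 422 and 578, and the summit lay 479 bp upstream of an internal start. PNPase, which encodes the RNA-degrading enzyme polynucleotide phosphorylase, had 933, with 425 and 508. These 5 stood above the other 15 of the 20 in the thresholded list, where the next was CG1888 with 822.

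The remaining genes of the 20 had varied roles. larp, which encodes a La-related RNA-binding protein, had a signal of 681, with 321 in replicate 1 and 369 in replicate 2, from a summit 351 bp upstream. GstE13, a glutathione transferase gene, was the member of the 20 with a downstream summit, 61 bp from its TSS, and had 639, with 289 and 350. mRpL41, a gene of the mitochondrial ribosome, had 624, with 275 and 351. Sox14, which encodes an HMG-box transcription factor, had 585, with 263 and 322. Atf3, which encodes a bZIP transcription factor, had 518, with 266 and 252, and was with CG5098 (292 and 279) one of the 2 in which replicate 1 was higher. CG18549, CG31145, CG13921, Alg3, Tina-1, MFS10 and Fkbp14 had signals between 494 and 627. Replicate 2 was higher in 18 of the 20, 9 of the nearest TSSs were internal starts and 6 summits were over 200 bp upstream.

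The largest ratios between the replicates were at weak peaks. Nepl8, which encodes a neprilysin-like peptidase, had 12.8 in replicate 1 and 73.2 in replicate 2, a log2 ratio of 2.52. Amph, the amphiphysin gene, had 14.5 and 60.3 (2.06), and ITP, which encodes the ion transport peptide, had 18.6 and 59.0 (1.66). At the other end CG2611 had 68.2 and 14.3 (-2.26), Coa8, a cytochrome oxidase assembly gene, had 55.1 and 19.9 (-1.47), and regucalcin had 58.2 and 22.5 (-1.37). The thresholded signals of these 6 lay between 77.2 and 90.1, near the threshold. Of the 1330, 4 peaks had no overlapping peak in one of the replicate lists, and they are named after their values were seen. M7BP, CG12868 and dlg1 had none in replicate 2, with 53.3, 37.2 and 62.6 in replicate 1, and Pfrx had none in replicate 1, with 62.5 in replicate 2.

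By the ratio of shares, DREF and M1BP sites were the elements that set one-direction summits most apart from their own flanks. In the 201 bp around the summit, TATCGATA occurred at 112 of 1330 (8.42%, 7.05 to 10%), and in 0.451% of flanking windows of equal length, whose centres were 600 bp from the summit. GGTCACACT occurred at 61 (4.59%, 3.59 to 5.85%) against 0.338% of flanks. The CGATA core, which the DREF site contains, occurred at 39.1% against 22.3%. GAGAGAG occurred at 79 (5.94%, 4.79 to 7.34%) against 4.47%. Letters were sought on both strands. Summits were chosen to lie within 500 bp of a TSS and flanks were not, and the part of this in these shares was not tested. The DREF and M1BP sites occurred at 13.3% and 6.58% of divergent summits. At summits away from promoters they occurred at 0.533% and 0.133%. Of the Mad sites, the Smad box GTCTG occurred at 18.0% of summits and 22.4% of flanks, and the GC-rich GCCGNCG at 5.34% and 10.1%. Median GC content was 38.8% around the summits and 43.8% in the flanks, and its part in these shares was not tested. The core GGCGCC occurred at 5.49% of summits and 3.61% of flanks. The silencer element of Mad and Medea occurred at 0 of 1330 summits and in 0.0752% of flanks. At a floor of 3 counts, 0 allows a share of up to 0.226% (Wilson upper limit 0.288%), so no depletion is shown. The sites of DREF and M1BP occurred together in 7 windows, and 1164 windows (87.5%) held neither.

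**Figure D4:**
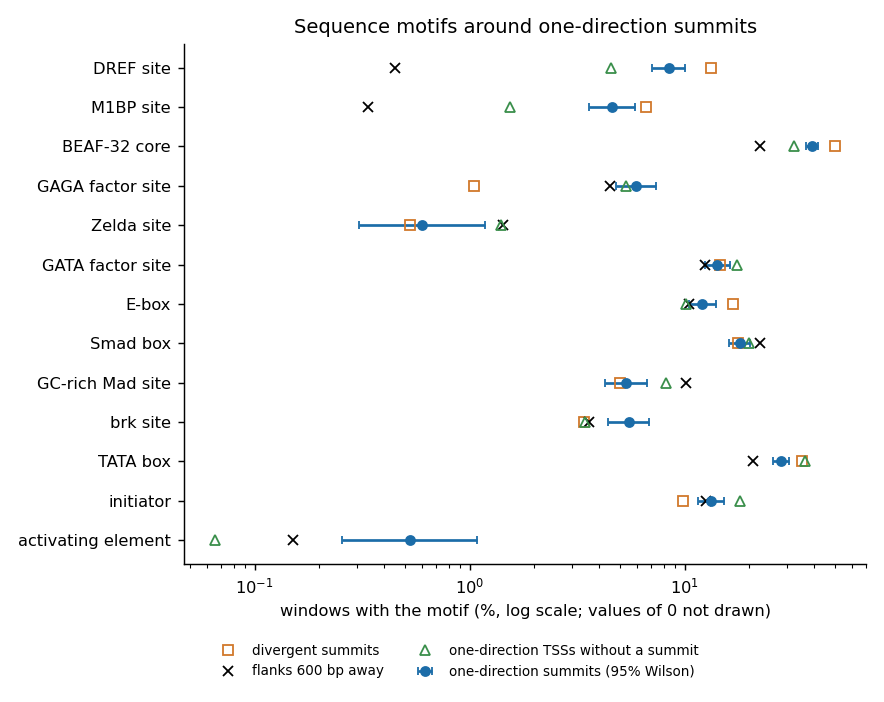
Share of 201 bp windows with each element (%, log scale) around one-direction summits (filled, bars are 95% Wilson intervals), divergent summits, flanks centred 600 bp away and one-direction TSSs without a summit. The DREF and M1BP sites stand at 8.42% and 4.59% of one-direction summits and below 0.5% of flanks. The Smad box and the GC-rich Mad site are lower at one-direction and at divergent summits than in flanks.

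Against divergent summits, 4 of 18 elements differed with intervals widened for the 18 comparisons. GAGAGAG was more frequent at one-direction summits, 5.94% against 1.05% (difference 4.89 points, interval 2.43 to 7.23). TATCGATA was less frequent, 8.42% against 13.3% (-4.87 points, -9.45 to -0.721), and so were CGATA, 39.1% against 50.3% (-11.2 points, -17.8 to -4.41), and the TATA box TATAAA, 28.1% against 35.3% (-7.14 points, -13.5 to -0.859). Each of the 4 lost its call in at least 1 alternative. GAGAGAG was at 3.55 points (-0.0904 to 5.53) and TATAAA at 0.644 points, the other sign, with opposite TSSs sought to 250 bp only. TATCGATA was at -3.36 points with a promoter distance of 250 bp, and CGATA was at -10.5 points in the 1000 strongest peaks. Median GC content was 38.8% around one-direction and 35.8% around divergent summits, and its part in these differences was not tested.

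One-direction TSSs with a summit were also set against those without, in windows centred 96 bp upstream of each gene's outermost TSS. The windows did not follow single summits, but the distance is close to the median position of the one-direction summits, 96.5 bp upstream. Of 10258 such TSSs, 1073 (10.5%) had a thresholded summit within 500 bp, and 6 of 18 elements differed with the widened intervals. TATCGATA occurred in 11.3% of the windows with a summit and 4.56% of those without (6.72 points, 4.05 to 9.99). GGTCACACT occurred in 4.94% and 1.54% (3.40 points, 1.71 to 5.81), and CGATA in 44.3% and 32.2% (12.1 points, 7.41 to 16.9). GGCGCC occurred in 5.59% and 3.45% (2.14 points, 0.281 to 4.68). The activating element, which contains GGCGCC, occurred in 9 of 1073 windows with a summit (0.839%) and 6 of 9185 without (0.0653%), a difference of 0.773 points (0.237 to 2.10), with the start of CG42837 shared by 2 genes among the 9. A form of the initiator, TCAGTT, was less frequent with a summit, 13.0% against 18.0% (-4.98 points, -8.02 to -1.40), but not with a window of 50 bp to each side, at -1.26 points. The Smad box was at 18.0% and 19.9% and GCCGNCG at 8.39% and 8.18%, with intervals that included 0. GAGAGAG was at 7.46% and 5.36%, and its interval, -0.0947 to 4.94 points, also included 0. That interval excluded 0 with windows of 50 or 200 bp to each side and in the strongest peaks of replicate 2 alone. Median GC content was 38.3% with and 38.8% without a summit.

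The elements went with different signal levels. The DREF site was found in 9.34%, 9.31%, 11.1% and 3.90% of the 4 signal groups from the weakest to the strongest, and the M1BP site in 6.63%, 6.01%, 4.52% and 1.20%. The GAGA site was found in 5.72%, 5.11%, 5.42% and 7.51%, with overlapping intervals. Peaks with a DREF site alone lay at a median of 58 bp upstream, those with an M1BP site alone at 37.5 bp and those with a GAGA site at 145 bp. Median signals were 99.6, 94.4 and 114 in that order, with 45.7, 44.7 and 51.3 in replicate 1 and 55.5, 49.7 and 66.6 in replicate 2. Of the 79 GAGA windows, 5 also held a DREF or M1BP site. The M1BP site had a direction at these promoters. From 250 bp upstream to 50 bp downstream of the TSSs, 75 of its sites read with the gene and 30 against it (71.4% with it, 62.2 to 79.2%), and within 20 bp of the TSS the counts were 39 and 6. The letters TCAGTT, which belong to the start site itself, were found with 134 sites on the gene's strand and 15 on the other within 20 bp.

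The activating element was found around 7 one-direction summits (0.526%, 0.255 to 1.08%) and 0 of 760 divergent ones, which allows up to 0.395% at the same floor (Wilson upper limit 0.503%). The widened interval of the difference, -0.688 to 1.53 points, included 0. In flanks the share was 0.150%, and at summits away from promoters 0.133%. Besides Mer and CG17746, these were Toll-7, eIF2A, CG42837, Ndf and Pgant4, named after their values were seen. Their signals ran from 71.5 at Pgant4, with 28.5 in replicate 1 and 41.5 in replicate 2, to 181 at Toll-7, which encodes a Toll family receptor, with 86.6 and 93.7. Replicate 2 was the higher one at each of the 7, beside 74.9% of the one-direction peaks found in both replicates.

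Genes were called when a one-direction TSS of theirs was the nearest to a summit. Of the 35 cytosolic large-subunit ribosomal protein genes with a one-direction TSS, 23 were called (65.7%, 49.2 to 79.2%), against 11.6% of all 10831 protein-coding genes with such a TSS. Of the 25 small-subunit genes 14 were called (56.0%, 37.1 to 73.3%). The strongest peaks among them were at RpL23A, with 158 in replicate 1 and 207 in replicate 2, at RpL11, with 132 and 130, and at RpL22, with 114 and 140. In the small subunit they were at RpS28b, with 123 and 122, at RpS10b, with 90.9 and 108, and at RpS29, with 65.6 and 124. The replicates thus lay within a few percent of each other at RpL11 and RpS28b and far apart at RpS29. Median signals were 124 for the large and 142 for the small subunit, beside 108 over all called genes. Their summits were close to the TSS, at medians of 14 and 21 bp upstream beside 93 bp over all called genes. In the strongest peaks of replicate 1 alone, 19 and 14 of these genes were called, and in those of replicate 2 alone 23 and 16. The TCT-type letters CTTTTC were near 12 of the 23 large-subunit and 7 of the 14 small-subunit peaks, beside 19.9% of all one-direction summits.

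Other housekeeping lists were closer to the background. Of 40 translation factor genes, 11 were called (27.5%, 16.1 to 42.8%), with the strongest peaks at eIF6, a ribosome biogenesis factor gene with 230 in replicate 1 and 244 in replicate 2, at eEF1gamma and at eIF3c, with 110 and 120. Of 20 mitochondrial ribosomal protein genes 4 were called (20%), and after mRpL41 the strongest was mRpL13, with 58.5 and 45.8. Of 51 respiratory chain and ATP synthase genes 7 were called (13.7%), led by ND-ASHI, a complex I gene, with 81.1 and 137. Of 14 aminoacyl-tRNA synthetase genes 2 were called, of 9 Mediator genes 1 and of 10 spliceosome genes 3, all with intervals that included 11.6%. Of 29 proteasome subunit genes, Prosalpha5 alone was called, with 48.1 and 28.9 (3.45%, 0.611 to 17.2%). The replicate lists gave 2 and 1 proteasome genes.

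Genes of the cell cycle and of chromatin regulation were called more often than the background of 11.6%. The list intervals, here and in the other paragraphs, were not widened for the 24 lists. The lists were not matched to the background for their number of TSSs, with which the called share rose. Of 23 cell cycle genes 11 were called (47.8%, 29.2 to 67.0%). The strongest were at Dp, the E2F partner, with 97.4 in replicate 1 and 100.1 in replicate 2, at polo, a mitotic kinase gene, with 51.0 and 77.1, and at CycD, with 51.6 and 58.1. Replicate 1 alone gave 12 and replicate 2 alone 9. Of 13 Polycomb and trithorax group genes 7 were called (53.8%, 29.1 to 76.8%), and each replicate alone gave 5. After ph-p the strongest were esc, with 51.5 and 72.4, and kis, which encodes a CHD-type remodeller, with 29.0 and 69.5. Of 12 insulator and promoter factor genes 4 were called (33.3%, 13.8 to 60.9%). Among them were Trl, with 99.8 and 97.3 from a summit 108 bp downstream, BEAF-32, with 54.4 and 70.1, and pita, with 56.6 and 24.3. Replicate 2 was the lower one by far at pita.

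**Figure D5:**
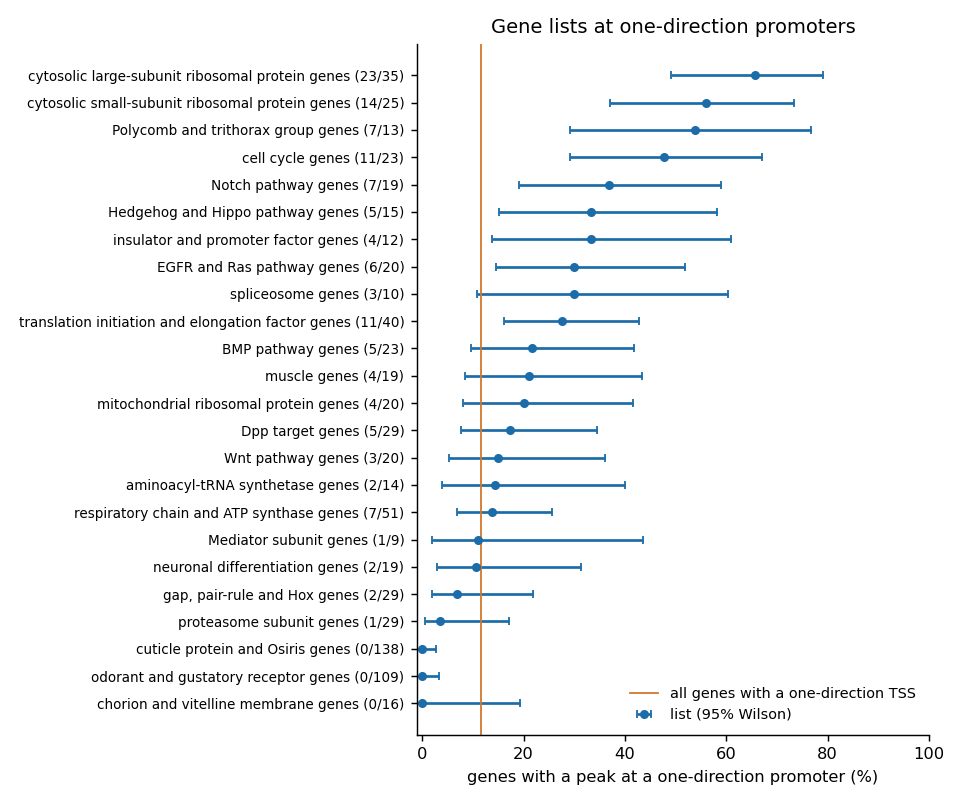
Share of the genes with a one-direction TSS that had a peak at such a TSS (%), for each of 24 gene lists with the counts in brackets (points, bars are 95% Wilson intervals); the line is the 11.6% over all such genes. Ribosomal protein, Polycomb and trithorax and cell cycle genes lie highest, and receptor, cuticle and eggshell genes have 0 called.

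Of the BMP pathway itself, 5 of the 23 genes with a one-direction TSS were called (21.7%, 9.66 to 41.9%), an interval that included the background. The strongest was magu, which encodes a secreted regulator of Dpp spread, with 87.8 in replicate 1 and 147 in replicate 2, from a summit 272 bp upstream of an internal start. dlp, which encodes a glypican, had 40.6 and 72.8, and Fs, the follistatin gene, had 36.6 and 35.8. Dad, which encodes the inhibitory Smad and is a direct target in flies, had 27.6 and 41.2 with a thresholded signal of 71.9, close to the threshold, from a summit 24 bp downstream. No one-direction TSS of Mad, brk, dpp, tkv, shn or zen was the nearest to a thresholded summit within 500 bp. Med, put and sax have no one-direction TSS. Of 29 Dpp target genes 5 were called (17.2%, 7.6 to 34.5%), while replicate 1 alone gave 7 and replicate 2 alone 4. Apart from magu and Dad, tin, which encodes a homeodomain protein of the heart and dorsal mesoderm, had 61.8 and 77.2 from a summit 208 bp upstream, and ush, which encodes a cofactor of GATA factors, had 46.1 and 36.7.

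Other signalling pathways had shares above or around the background. Of 19 Notch pathway genes 7 were called (36.8%, 19.2 to 59.0%), with the strongest peaks at gro, the Groucho co-repressor gene, with 137 in replicate 1 and 170 in replicate 2, at numb, with 92.0 and 121, and at E(spl)m3-HLH, a Notch target, with 73.1 and 85.7. Of 20 EGFR and Ras pathway genes 6 were called (30%, 14.5 to 51.9%), led by spi, which encodes the ligand Spitz, with 152 and 180, then aos, which encodes the secreted inhibitor Argos, with 73.4 and 54.8, and edl with 57.8 and 46.6. Of 15 Hedgehog and Hippo pathway genes 5 were called (33.3%, 15.2 to 58.3%), with hpo, the Hippo kinase gene, at 77.0 and 99.4 and rdx at 39.8 and 98.4. Of 20 Wnt pathway genes 3 were called (15%, 5.24 to 36.0%), namely sgg, the GSK3 gene, with 146 and 158, nkd, with 58.7 and 88.0, and Wnt6, with 56.8 and 66.5.

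Shares in lists of patterning and tissue genes ran from 0 to 21.1%, beside 11.6% of all genes with a one-direction TSS. For the gap, pair-rule and Hox, the neuronal and the muscle genes the intervals included 11.6%. Of 29 gap, pair-rule and Hox genes 2 were called (6.90%, 1.91 to 22%), bcd with 55.9 in replicate 1 and 86.9 in replicate 2 and hth with 33.1 and 54.6. Of 19 neuronal genes 2 were called (10.5%, 2.94 to 31.4%). They were elav, which encodes an RNA-binding protein of neurons, with 176 and 272, and Syx1A, with 40.7 and 24.4. Of 19 muscle genes 4 were called (21.1%, 8.51 to 43.3%), among them sls, which encodes a titin-like protein, with 105 and 114, Mef2, with 40.5 and 58.5, and Tm1, with 54.6 and 37.3. Of 109 odorant and gustatory receptor genes, 138 cuticle protein and Osiris genes and 16 chorion and vitelline membrane genes, 0 were called in the thresholded list and in each replicate list. The Wilson intervals reached 3.40%, 2.71% and 19.4%, so only the last included 11.6%.

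Genes with more start sites were called more often. Of genes with a single one-direction TSS 7.89% were called, of those with 2 it was 17.1%, with 3 it was 26.8% and with 4 or more 42.5%. The median span of called genes was 5205 bp and that of the others 2112 bp. A gene with more TSSs covers more sequence in which a summit can be counted. Counting outermost TSSs only, 1073 of 10258 one-direction TSSs (10.5%) and 1425 of 3687 divergent TSSs (38.6%) had a summit within 500 bp, a difference of -28.2 points (95% Newcombe interval -29.9 to -26.5). At a divergent pair 1 summit can count for both genes.

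The peaks at the limits of the rule had signals from 73.1 to 574. Just inside 500 bp of the TSS were RapGAP1 and t-cup, both 493 bp upstream, with signals of 77.0 and 140, and just outside were CG31523 and CG3919, both at 501 bp downstream, with 219 and 73.1. With the opposite TSS just too far to count were Ptpmeg, at 502 bp and with a signal of 98.1, and CG5098, at 505 bp. With it just near enough to be left out were Polr2I, at 500 bp and with 76.3, and Alp12, at 498 bp and with 80.5. Alp12 overlaps a stronger neighbour, so its replicate values of 116 and 180 are those of the highest overlapping peak. Over the chromosome arms the density of one-direction peaks ran from 7.42 per Mb on chromosome 4, with 10 peaks, to 11.1 per Mb.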

How the data were processed

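The authors deposited lists of peaks in build dm6 for each replicate and for both together (30000 peaks each) and a list of 3590 that passed their cut-off for the irreproducible discovery rate, each derived from alignments of the replicates and a control, per the deposited texts. The signal of a peak is the authors' own value, and the sources used here name no aligner, peak caller or read depth. Chromatin was sheared to 200 to 800 bp, per the labels. TSSs were those of protein-coding transcripts in Ensembl release 115. Replicate signal was the highest among peaks overlapping by at least 1 bp. In single-replicate comparisons the 3590 strongest peaks of that replicate were used. Shares have 95% Wilson intervals and differences Newcombe intervals, widened to 99.7% for 18 motifs. No test between conditions was possible with 1 group. Named genes are the 20 strongest, up to 3 per list, 12 fixed genes, the 3 highest and lowest replicate ratios, 2 peaks on each side of each limit, and the printed sequences. Members, lists and motifs were chosen with earlier results of these data known. Older gene symbols were updated to the annotation's. The functions were tested on simulated data. Computations used Python 3.11.15, pandas 2.3.3, numpy 2.4.6 and statsmodels 0.14.6.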

Additional observations from a re-analysis of the deposited data

How the results depend on the processing

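No paired analysis was possible because the samples form 1 group. Peak lists without read depths limit the precision to counting error over peaks. With a promoter distance of 250 bp the one-direction share of promoter peaks was 58.6%, the median summit position -76 bp, the upstream difference from divergent promoters 2.73 points and the share of genes with a peak 9.66%. With 1000 bp the share was 66.8% and 78.9% of summits were upstream. With opposite TSSs sought to 250 bp the share was 83.8%, the outermost share 74.4%, 13.3% of genes had a peak, 2 motifs differed from divergent summits and the upstream difference was 17.9 points. With 1000 bp the share was 54.6% and the upstream difference 2.53 points. With 1 TSS per gene the share was 61.0%, with 79.9% upstream and a median of -81 bp. In the 1000 strongest peaks there were 370 members, 59.1% of promoter peaks, with 88.6% upstream, a median of -143 bp, an upstream difference of 7.79 points, 100% among the strongest of both replicates and 3.35% of genes. These peaks were chosen by their signal in both replicates together, so the 100% is no test of agreement. A motif window of 50 bp to each side gave 2 motifs that differed. Matching replicates by summits within 100 bp or by an overlap of 0.5 put 68.3% and 65.8% among the strongest of both. Leaving out either replicate gave 81.0 to 81.5% upstream, medians of -99 to -86 bp and upstream differences of 1.33 to 1.34 points. The cause of these moves was not tested. The rise of the share over 200 bp upstream from the weakest to the strongest signal group kept its direction and an interval above 0 in the alternatives run, all added after the data were seen. Over single motifs, 119 of 144 differences from divergent summits changed neither sign nor call, 7 lost their call, 6 gained one and 12 changed sign. Of these 12 the TATA box was a call, at 0.644 points with opposite TSSs sought to 250 bp. The others had intervals that included 0 before and after. Opposite TSSs sought to 250 bp gave -0.831 points for the Smad box, 0.535 for the GATA site and -0.63 for the CTCF-like core, and those to 1000 bp gave -0.912 for the Smad box and -0.106 for the Zelda site. The Myc E-box was at 0.118 in the 1000 strongest peaks. Windows of 50 bp gave 0.376 for the Myc E-box and -0.0376 for the Zelda site, and 200 bp gave -1.73 for the Smad box. Leaving out either replicate gave -0.305 to 0.251 for the Zelda site and -0.0187 to 1.83 for the Smad box. Between TSSs with and without a summit, 58 of 72 differences changed neither sign nor call, 1 lost its call, 4 gained one and 9 changed sign, none of them a call. Windows of 50 bp gave -0.317 points for the E-box, -0.185 for the Myc E-box, 0.0605 for the Smad palindrome, -0.271 for the GC-rich Mad site, 1.27 for the TATA box and -0.692 for the TCT letters. Windows of 200 bp gave 0.105 for the Smad palindrome and -0.103 for the silencer element. Leaving out either replicate gave -0.133 to 1.18 for the CTCF-like core.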

Other observations

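The Zelda site and the palindromic Smad box were rare around one-direction summits. The Zelda site CAGGTAG, bound by the activator of the zygotic genome, occurred at 8 of 1330 summits (0.602%, 95% Wilson interval 0.305 to 1.18%) against 1.43% of flanks. At divergent summits its share was 0.526%. At one-direction TSSs with and without a summit it was 0.373% and 1.40%, and the widened interval of the difference included 0. The palindromic Smad box GTCTAGAC occurred at 2 summits (0.150%) against 0.0752% of flanks, so it was rare in both. The 2 were those of Plod and Ama, which are named after their values were seen. Plod, which encodes a procollagen lysyl hydroxylase, had 33.1 in replicate 1 and 68.9 in replicate 2, and Ama, which encodes an immunoglobulin-domain protein, had 40.9 and 88.7. Replicate 2 was the higher one at both, beside 74.9% of the one-direction peaks found in both replicates.

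The GATA factor site TGATAA occurred at 14.2% of one-direction summits and 12.4% of flanks. At divergent summits its share was 14.6% and at summits away from promoters 17.3%. At one-direction TSSs with and without a summit it was 15.6% and 17.4%, with an interval of the difference that included 0. From the weakest to the strongest of the 4 signal groups its share was 10.5%, 14.7%, 15.1% and 16.5%, with overlapping intervals. Peaks with it lay at a median of 146 bp upstream, and those with a TATA box at 136 bp. The E-box CAGCTG occurred at 12.1% of one-direction and 16.7% of divergent summits, a difference of -4.61 points whose widened interval, -9.66 to 0.0808, included 0.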
